A study of Mus musculus with 9 samples.

Results

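The genes described here encode collagen chains. They were chosen by name: every probe set of the array whose platform annotation gives exactly 1 gene symbol of the form Col, number, a, number was taken, which gave 82 probe sets of 42 genes. A probe set is a group of short probes on the array that together report 1 transcript or a few. Of these, 56 probe sets of 35 genes were bright enough to be tested, among 27022 probe sets and 13702 named genes tested in all. Col24a1, Col9a2, Col10a1, Col6a4, Col6a5, Col13a1 and Col26a1 were measured only below that signal limit.

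RNA came from whole cochleae of male C57BL/6 mice on 9 single-colour arrays, 3 in each of 3 groups. Young controls (YC) were 4 months old and middle-aged controls (MC) were 15 months old, and both were fed 84 kcal per week. Calorie-restricted mice (CR) were also 15 months old, and from 2 months of age they were fed 62 kcal per week, which is 26% less. Each sample pooled 4 cochleae of 2 mice, so a p-value measures the spread between 3 such pools per group. The series set MC against YC to look at ageing and CR against MC to look at calorie restriction.

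Collagens are built from 3 chains wound into a triple helix. Types I, III and V form the banded fibrils of bone, skin and ligament, and types II, IX and XI form the thinner fibrils of cartilage and, in the inner ear, of the tectorial membrane that overlies the hair cells. Type IV chains form the network of basement membranes, where the chains encoded by Col4a3, Col4a4 and Col4a5 are known for Alport syndrome with its hearing loss. Type VI chains assemble into beaded filaments around cells, and a further set of collagens decorates fibrils, anchors epithelia or spans the cell membrane. Changes in COL2A1, COL9 and COL11 genes are known causes of hearing loss in people.

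Values below are log2(signal + 16) after quantile normalization, which gives every array the same distribution of values, and a difference is a difference of group means on this scale. A gene is represented by its brightest tested probe set, and a call is a Benjamini-Hochberg adjusted p under 0.05 over all tested probe sets in limma. The deposited arrays fell into 4 with a low median signal (526.8 to 626.6), which were the 3 CR arrays and YC replicate 1, and 5 with a high one (842.4 to 1103.9), which were the 3 MC arrays and YC replicates 2 and 3. CR and MC therefore never share a median class. Their difference and the class cannot be told apart except through the YC arrays, which are of a younger age. Of 6 markers of cochlear fibrocytes, 5 had a single-gene probe set and all 5 were bright enough to be tested, while 4 of 7 hair cell markers with a probe set were. All 10 skeletal muscle markers were lower in CR than in MC, and 6 of them were called. Their summed deposited signal was 237661 to 364045 in CR, 788248 to 1315970 in MC and 559846 to 1197750 in YC. In the other direction, 9 of 10 brain and meninges markers were higher in CR, with a median difference of 1.25 and none called. The part of these tissues in the collagen values was not tested.

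Stretches of 150 bases just upstream of the transcription start are given for 5 collagen genes. They were picked after the values were seen, from RefSeq promoters of build GRCm38.p6 that lie outside annotated genes, and are not the 5 with the smallest p. Col1a2 (chr6:4505468-4505617, plus strand), Col3a1 (chr1:45311388-45311537, plus strand), Col6a1 (chr10:76726045-76726194, minus strand) and Col6a2 (chr10:76623631-76623780, minus strand, the farther upstream of its 2 starts) were lower in CR than in MC, and Col8a1 (chr16:57754738-57754887, minus strand) was higher. Capitals mark the box CCAAT, the core GGGCGG of sites bound by Sp1, and the motif TATAAA of the TATA box, each searched on both strands. On the opposite strand the Sp1 core reads CCGCCC.
Col1a2: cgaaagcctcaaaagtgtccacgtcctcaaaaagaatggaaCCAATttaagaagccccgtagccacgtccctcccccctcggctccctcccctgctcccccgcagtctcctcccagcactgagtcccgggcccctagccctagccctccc
Col3a1: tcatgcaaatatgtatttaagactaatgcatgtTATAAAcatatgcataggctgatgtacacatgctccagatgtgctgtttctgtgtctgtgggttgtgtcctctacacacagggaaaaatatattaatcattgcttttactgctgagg
Col6a1: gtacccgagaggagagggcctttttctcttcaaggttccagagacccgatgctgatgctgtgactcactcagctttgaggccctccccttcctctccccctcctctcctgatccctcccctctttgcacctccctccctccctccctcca
Col6a2: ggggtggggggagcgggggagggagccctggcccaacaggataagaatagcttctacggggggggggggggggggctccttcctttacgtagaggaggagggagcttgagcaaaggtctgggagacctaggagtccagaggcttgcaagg
Col8a1: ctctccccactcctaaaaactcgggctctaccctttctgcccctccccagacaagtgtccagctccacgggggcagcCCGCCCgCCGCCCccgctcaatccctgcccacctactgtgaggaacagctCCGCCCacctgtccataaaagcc

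The stretch of Col1a2 holds 1 CCAAT, that of Col3a1 holds 1 TATAAA, that of Col8a1 holds GGGCGG 3 times on the strand opposite the gene, and those of Col6a1 and Col6a2 hold none of the 3. Among the collagen genes, 33 matched the RefSeq promoter table, with 36 promoters. Within 250 bases upstream of the start, GGGCGG was found on either strand in 21 of the 36 (58.3%), against 32.7% of all 32851 promoters. The median GC content was 59.0% in collagen promoters and 52.4% in all. CCAAT was found in 13 collagen promoters (36.1%, against 33.8% of all) and TATAAA in 5 (13.9%, against 12.4%). ACAAAG and ACAATG, cores of sites bound by Sox proteins such as Sox9, were found in 3 (8.33%, against 16.5%) and in 0 (0.0%, against 10.7%). The motifs do not overlap each other in the printed stretches, and a match is a description of these letters only.

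No collagen gene was called in any comparison. In MC minus YC 0 probe sets of the whole array were called (0.0%), in CR minus MC 25 were (0.0925%), in CR minus YC 0 (0.0%), and by the moderated F test over the 3 groups 0 (0.0%). The smallest adjusted p of a collagen gene was 1 in MC minus YC, 0.179 in CR minus MC (Col6a1), 0.400 in CR minus YC (Col6a1) and 0.336 in the F test. Calls in CR minus MC did appear under 3 alternatives: 4 collagen probe sets (Col1a2, the second of Col4a1 and both of Col6a2, of 1846 called in all) with only CR and MC in the fit, 2 (both of Col6a2, of 987) without YC replicate 2, and 13 (of 3397) with array weights. In CR minus MC, 9 of 35 genes had an unadjusted limma p under 0.05 (7 lower, 2 higher), where 17.3% of all genes did (9.39% lower, 7.94% higher). In CR minus YC 6 of 35 did, against 11.2% of all genes, and in MC minus YC 0 of 35 did, against 2.95%. The values of the 2 groups did not overlap for 12 of 35 collagen genes in CR minus MC, 7 in CR minus YC and 0 in MC minus YC, where 36.6%, 21.2% and 5.57% of all genes did not overlap. The count of non-overlapping collagen genes in CR minus MC is thus near that of the array as a whole; the count lower at an unadjusted p stands above the array's share, and that excess was not tested.

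By direction, 22 of the 35 genes were lower in CR than in MC and 13 were higher, with a median difference of -0.25, while 45.4% of all genes were lower with a median of 0.06. When arrays were instead centred on their median, 9 collagen genes were lower and 26 higher, and the medians were 0.40 for the collagens and 0.65 for all genes, so that the collagen median lay 0.32 below that of all genes in the first case and 0.25 below in the second. All 6 tested cartilage collagens were higher in CR, whereas the 6 tested fibrillar collagens of bone, skin and ligament and the 3 tested type VI chains were lower, a direction that turned with median centring for both of these classes. In bulk tissue, fewer cells of a type and less RNA per cell cannot be told apart.

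**Figure D1:**
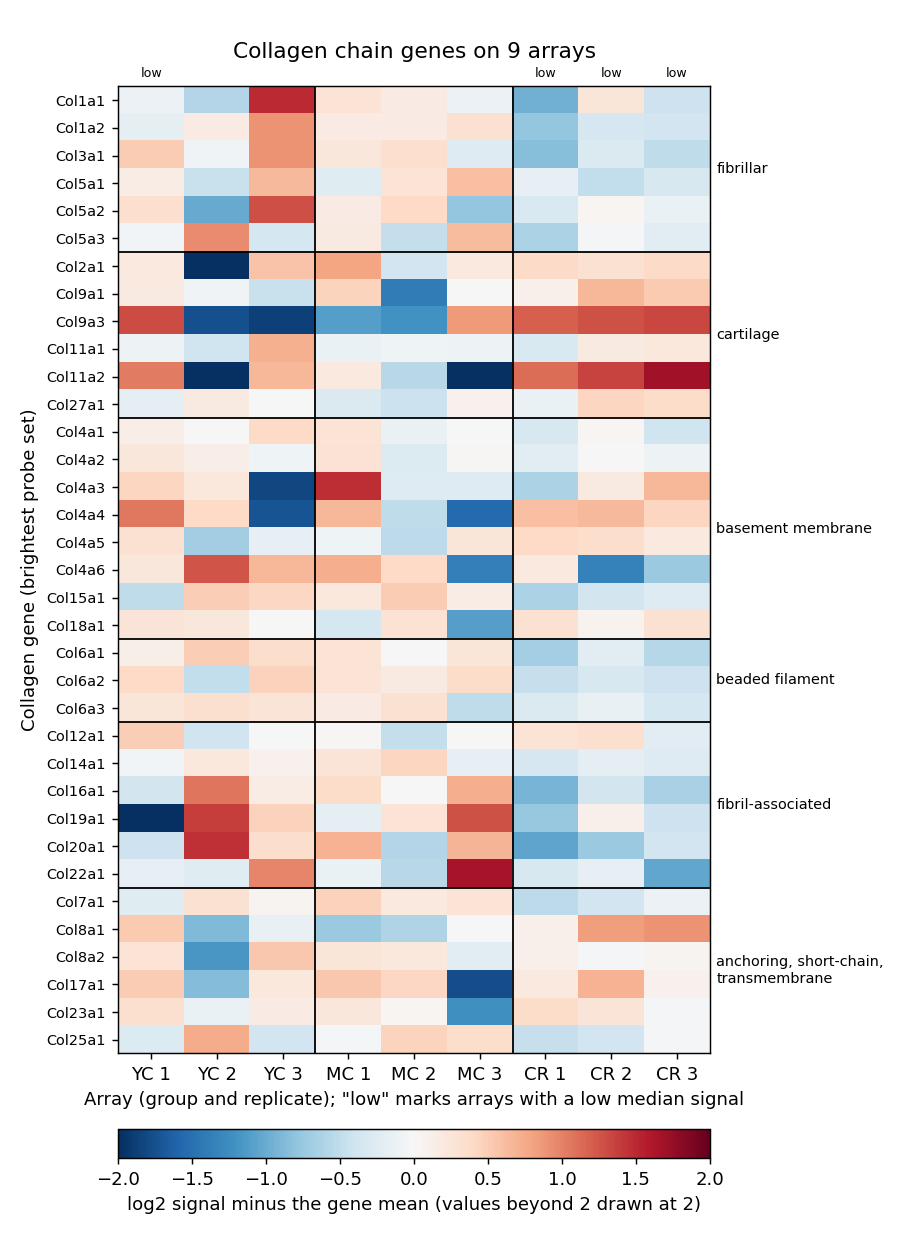
Heat map of the 35 tested collagen genes (rows, grouped by class) on the 9 arrays (columns), in log2 signal minus the gene's mean over all arrays; "low" marks the 4 arrays with a low median signal. Type VI and most fibrillar rows are blue in CR and Col9a3 and Col11a2 red, before any centring on array medians, which turns the first 2 classes; YC replicate 1 is red with CR for Col9a3 and Col11a2.

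**Figure D2:**
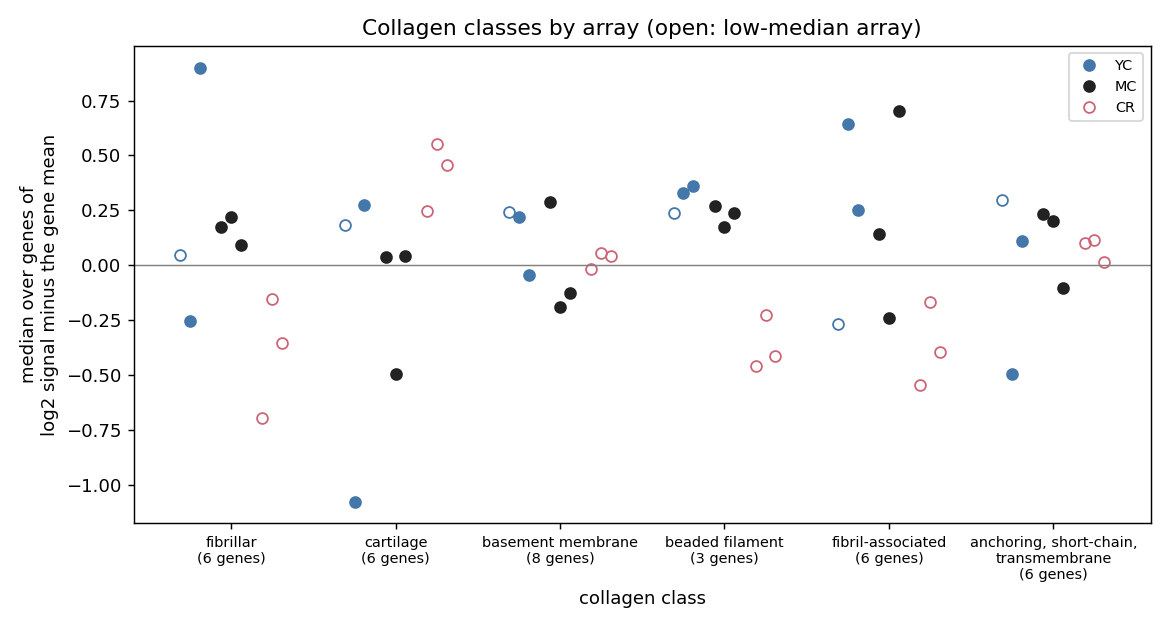
Each point is 1 array's median, over the genes of a class, of log2 signal minus the gene mean; colours give the group and open points the arrays with a low median signal. For type VI the CR arrays (-0.46, -0.23 and -0.42) lie below all others, and for cartilage collagens the CR arrays (0.24, 0.55 and 0.46) overlap the YC arrays; with median centring, type VI is higher in CR than in MC.

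The fibrillar collagens of bone, skin and ligament were lower in CR than in MC for all 6 tested genes, with a median difference of -0.51, but higher for all 6 (median 0.27, against 0.65 for all genes) when arrays were centred on their median. With the array class, the low or high median signal described above, as a term in the model, their median was -0.16. Col1a2, which encodes the second chain of type I collagen, the main protein of bone matrix, read 14.59, 14.95 and 15.68 in YC, 14.94, 14.94 and 15.08 in MC and 14.01, 14.44 and 14.39 in CR. All 3 CR arrays lay below all 6 others, and the difference CR minus MC was -0.71 ± 0.25 (SE, adjusted p = 0.208). Its other tested probe set gave -0.04 ± 0.31. Col1a1, the partner chain of type I, read 13.61, 13.13 and 15.21 in YC, 13.99, 13.88 and 13.60 in MC and 12.76, 13.97 and 13.30 in CR. CR and MC overlapped for Col1a1, YC spread over 2 log2 units, and CR minus MC was -0.48 ± 0.47 (SE, adjusted p = 0.577). The second probe set of Col1a1 read 13.07, 14.15 and 14.05 in YC, 13.32, 13.51 and 14.54 in MC and 12.49, 12.91 and 12.74 in CR, with a difference of -1.08 ± 0.36 (SE, adjusted p = 0.190). Both probe sets of Col1a1 were thus lower in CR, and only the dimmer one separated CR from all other arrays. Col3a1, whose homotrimer gives skin and vessel walls their extensibility, read 14.58, 14.02 and 14.98 in YC, 14.31, 14.42 and 13.83 in MC and 13.23, 13.80 and 13.58 in CR. Its CR arrays were again the lowest of all 9, at -0.65 ± 0.27 (SE, adjusted p = 0.241) against MC and -0.99 ± 0.27 (SE, adjusted p = 0.457) against YC. The second tested probe set of Col3a1 gave -0.32 ± 0.41 against MC and -0.80 ± 0.41 against YC. There MC replicate 1, at 9.38, lay below all CR arrays.

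Type V chains sit inside type I fibrils and limit their width. Col5a1 read 11.60, 11.01 and 12.11 in YC, 11.21, 11.72 and 12.06 in MC and 11.29, 10.96 and 11.13 in CR, with CR and MC overlapping and a difference of -0.54 ± 0.33 (SE, adjusted p = 0.387). Its second tested probe set read 10.87, 11.45 and 11.50 in YC, 11.14, 11.82 and 11.42 in MC and 10.49, 10.40 and 10.67 in CR, with CR below all 6 other arrays and a difference of -0.94 ± 0.29 (SE, adjusted p = 0.184). Col5a2 read 12.19, 10.84 and 13.13 in YC, 12.01, 12.25 and 11.08 in MC and 11.54, 11.89 and 11.72 in CR, and at -0.07 ± 0.50 CR and MC did not differ beyond their spread. The second probe set of Col5a2 had the opposite sign (0.35 ± 0.34). Col5a3 overlapped between CR and MC, at -0.41 ± 0.39. In the age comparison 5 of the 6 fibrillar genes were lower in MC than in YC, with a median of -0.12, and no difference reached its threshold: Col1a2 gave -0.09 ± 0.25 and Col3a1 -0.35 ± 0.27. The YC arrays spread more widely than the CR arrays for all 6 genes, with YC replicate 3 the highest array for Col1a1, Col1a2, Col3a1, Col5a1 and Col5a2.

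YC replicate 1 was the only control array with the low median signal of the CR arrays. Against it, the CR mean differed by -1.05 for Col3a1, -0.47 for Col5a1, -0.48 for Col5a2 and -0.31 for Col1a2, and for these 4 genes the array lay above all 3 CR arrays. For Col1a1 and Col5a3 it lay within the CR arrays. With the array class as a term in the model, CR minus MC was 0.08 for Col1a1 and 0.01 for Col1a2. These values rest on 1 control array, and it pooled 4-month mice, so the CR differences from it mix age with diet. Markers of fibroblasts, cells that make types I and III, were 3 higher and 3 lower in CR than in MC, with a median of 0.0041, and those of bone cells were 4 higher and 2 lower, with a median of 1.12. None of either list was called, and their part in the collagen values was not tested.

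**Figure D3:**
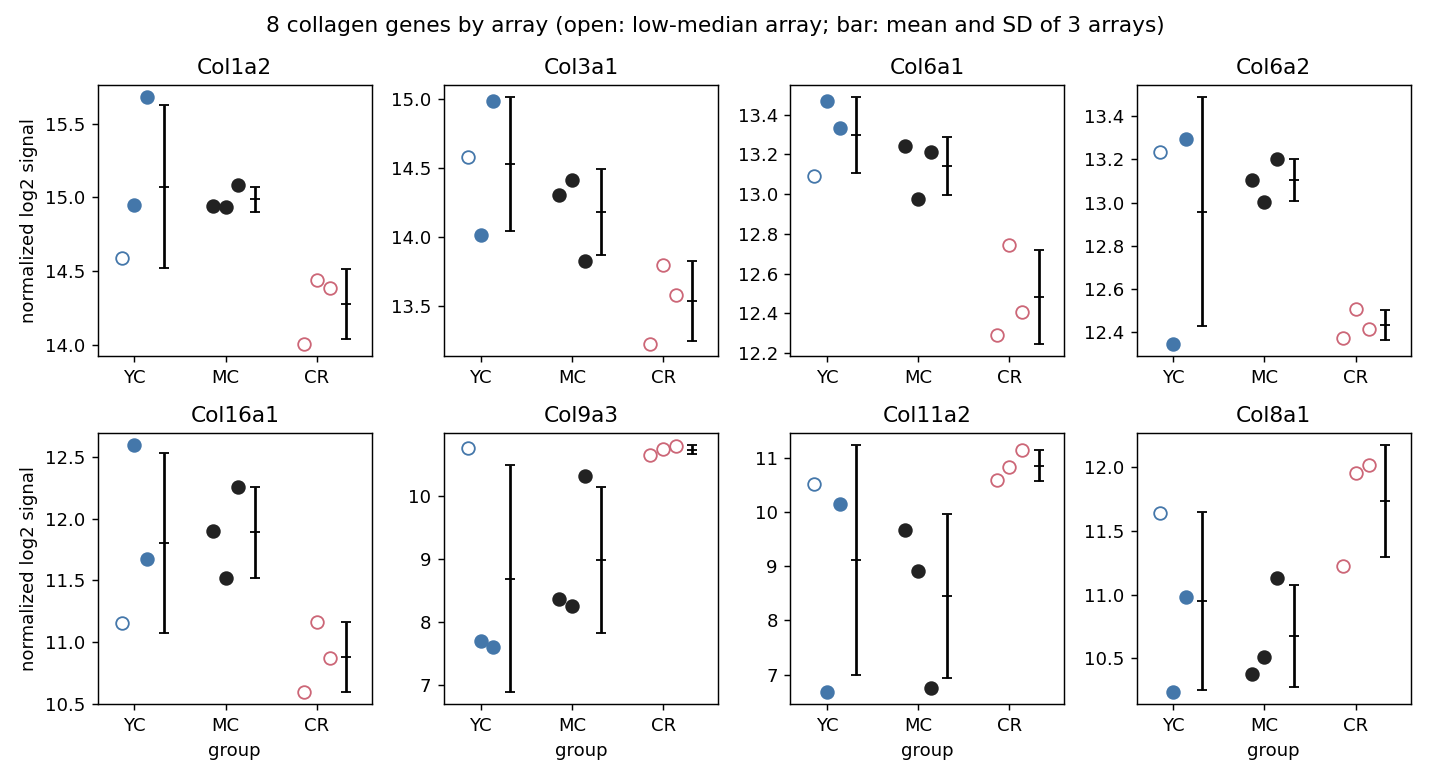
Normalized log2 signal of 8 collagen genes on each array by group, with the mean and SD of 3 arrays; open points are arrays with a low median signal. CR lies below MC for Col1a2, Col3a1, Col6a1, Col6a2 and Col16a1 (of these, all but Col16a1 turn with median centring) and above MC for Col9a3, Col11a2 and Col8a1, and the open YC point stands with CR for the last 3.

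Type VI collagen, the beaded filament that links cells to the surrounding matrix, was lower in CR than in MC for all 3 tested chains, with a median of -0.66, a direction that median centring turned (3 of 3 higher, median 0.28, against 0.65 for all genes). The median was -0.35 with the array class as a term and -0.34 without quantile normalization. Col6a1 read 13.09, 13.47 and 13.33 in YC, 13.24, 12.98 and 13.21 in MC and 12.29, 12.74 and 12.41 in CR. The 3 CR arrays lay below all 6 others, at -0.66 ± 0.20 (SE, adjusted p = 0.179) against MC and -0.82 ± 0.20 (SE, adjusted p = 0.400) against YC, which are the smallest adjusted p of any collagen gene in both comparisons. Col6a2 read 13.23, 12.34 and 13.29 in YC, 13.10, 13.005 and 13.20 in MC and 12.37, 12.51 and 12.41 in CR. Here CR lay below all MC arrays, at -0.67 ± 0.25 (SE, adjusted p = 0.216), but YC replicate 2 was as low as CR. The second probe set of Col6a2 read 12.45, 12.35 and 12.86 in YC, 12.69, 13.05 and 13.02 in MC and 11.95, 12.06 and 11.83 in CR, at -0.97 ± 0.21 (SE, adjusted p = 0.130), and separated CR from all 6 other arrays. By the array's naming its probes can also match other transcripts. Col6a3 read 12.16, 12.25 and 12.18 in YC, 12.09, 12.23 and 11.41 in MC and 11.64, 11.77 and 11.57 in CR; CR lay below all YC arrays, at -0.53 ± 0.25 (SE, adjusted p = 0.462), and overlapped MC replicate 3, at -0.25 ± 0.25.

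For all 3 type VI genes YC replicate 1 was above every CR array, and the CR mean lay -0.61, -0.80 and -0.50 from it for Col6a1, Col6a2 and Col6a3. Differences in the low-median class were therefore close to those between CR and MC, or beyond them. With age the type VI genes gave -0.15 ± 0.20, 0.15 ± 0.25 and -0.29 ± 0.25, and YC and MC overlapped for each. Type VI collagen is also abundant in the connective tissue of muscle, whose markers were lower in CR as well, with the summed signals given above; their part in the type VI values was not tested. Col6a1 and Col6a2 are direct neighbours in the RefSeq gene order and gave differences of -0.66 and -0.67. Among the other neighbouring pairs, the brightest probe sets of Col4a1 with Col4a2 and of Col3a1 with Col5a2 shared a sign in CR minus MC. Those of Col4a4 with Col4a3, Col4a6 with Col4a5 and Col9a1 with Col19a1 did not. The differences of Col4a2, Col5a2, Col4a3 and Col4a6 were smaller than their SE, and tested probe sets of Col5a2, Col4a5 and Col9a1 split in sign. No shared or opposite direction can be read from these pairs.

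Cartilage collagens were higher in CR than in MC for all 6 tested genes, with a median of 0.59, as they were with median centring (6 of 6), but for 4 of 6 in the deposited table without quantile normalization. The median was 0.27 without MC replicate 2, 0.295 with a signal limit at the 60th percentile, 0.298 when the model held each array's median and 0.304 when it held the array class. Col11a2, a chain of the type XI collagen that nucleates cartilage fibrils and is found in the tectorial membrane, read 10.52, 6.68 and 10.14 in YC, 9.67, 8.91 and 6.76 in MC and 10.59, 10.83 and 11.14 in CR. CR lay above all 6 other arrays, and YC and MC each held 1 array near 6.7, so the difference of 2.40 ± 0.99 had an adjusted p of 0.240. Col9a3, a chain of type IX collagen on the surface of type II fibrils, read 10.76, 7.70 and 7.59 in YC, 8.35, 8.25 and 10.31 in MC and 10.65, 10.74 and 10.79 in CR. It separated CR from MC, at 1.75 ± 0.84 (SE, adjusted p = 0.288), and YC replicate 1 stood with CR while YC replicates 2 and 3 were the lowest of all. The other 2 probe sets of Col9a3 were below the signal limit: one read 9.90, 5.04 and 7.09 in YC, 8.51, 7.82 and 8.79 in MC and 10.40, 10.07 and 9.76 in CR, with the same placing of YC replicate 1, and the other read 8.63, 8.79 and 8.63 in YC, 8.16, 8.36 and 8.41 in MC and 7.97, 7.73 and 8.02 in CR, with CR the lowest group.

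Col11a1, another type XI chain, read 10.27, 9.98 and 11.09 in YC, 10.24, 10.29 and 10.27 in MC and 10.07, 10.55 and 10.59 in CR, and CR and MC did not differ beyond their spread (0.13 ± 0.36). The dimmer probe set of Col11a1 read 9.96, 7.99 and 8.80 in YC, 8.93, 9.05 and 6.73 in MC and 9.83, 9.997 and 9.85 in CR, with CR above MC by 1.65 ± 0.72 (SE, adjusted p = 0.257) and YC replicate 1 beside CR. Col9a1, which encodes a further type IX chain, read 10.64, 10.38 and 10.01 in YC, 10.89, 9.07 and 10.45 in MC and 10.56, 11.13 and 10.98 in CR, at 0.75 ± 0.46 (SE, adjusted p = 0.384). Its other probe set had the opposite sign, -0.72 ± 0.40 (SE, adjusted p = 0.345), and read 9.57, 10.67 and 10.98 in YC, 10.87, 10.86 and 10.34 in MC and 9.92, 9.97 and 10.03 in CR. No direction can be given for Col9a1 from this pair. Col2a1, the single chain of the type II collagen of cartilage, read 10.38, 7.77 and 10.76 in YC, 10.98, 9.82 and 10.39 in MC and 10.58, 10.50 and 10.58 in CR. At 0.16 ± 0.68 it did not differ between CR and MC beyond its spread, and the age difference of 0.76 ± 0.68 rested on YC replicate 2, without which it was -0.17. Col27a1, a fibrillar collagen of growth cartilage, read 11.66, 12.04 and 11.84 in YC, 11.57, 11.43 and 11.95 in MC and 11.72, 12.29 and 12.23 in CR, at 0.43 ± 0.25 (SE, adjusted p = 0.365).

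Against YC replicate 1, the CR mean was -0.03 for Col9a3, 0.34 for Col11a2, 0.17 for Col2a1 and 0.42 for Col27a1. The excess of Col9a3 in CR over MC was thus not present against the control array of the same median class, and that of Col11a2 was small there. Among the 8 tested markers of cartilage cells, 5 were higher in CR than in MC, with a median of 0.23 and none called. Their summed deposited signal was 20256.9 to 21741.2 in CR, 13165.3 to 16373.9 in MC and 11841.7 to 16405.7 in YC. That sum is taken before quantile normalization and is weighted to the brightest markers. Cnmd, a marker of chondrocytes, gave 1.17, Prg4, the lubricant of joint surfaces, 0.72, and Comp, a matrix protein that binds collagen, 0.66. Sox9, a transcription factor of cartilage, gave 0.42 and Matn1, a cartilage matrix protein, -0.15. Their part in the collagen values was not tested. Below the signal limit, Col9a2, the remaining type IX chain, read 6.70, 8.28 and 8.42 in YC, 6.75, 7.35 and 8.62 in MC and 7.41, 9.01 and 9.61 in CR, and Col10a1, made by hypertrophic chondrocytes, read 6.40, 7.09 and 7.60 in YC, 7.71, 6.29 and 8.12 in MC and 6.06, 6.49 and 5.86 in CR.

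**Figure D4:**
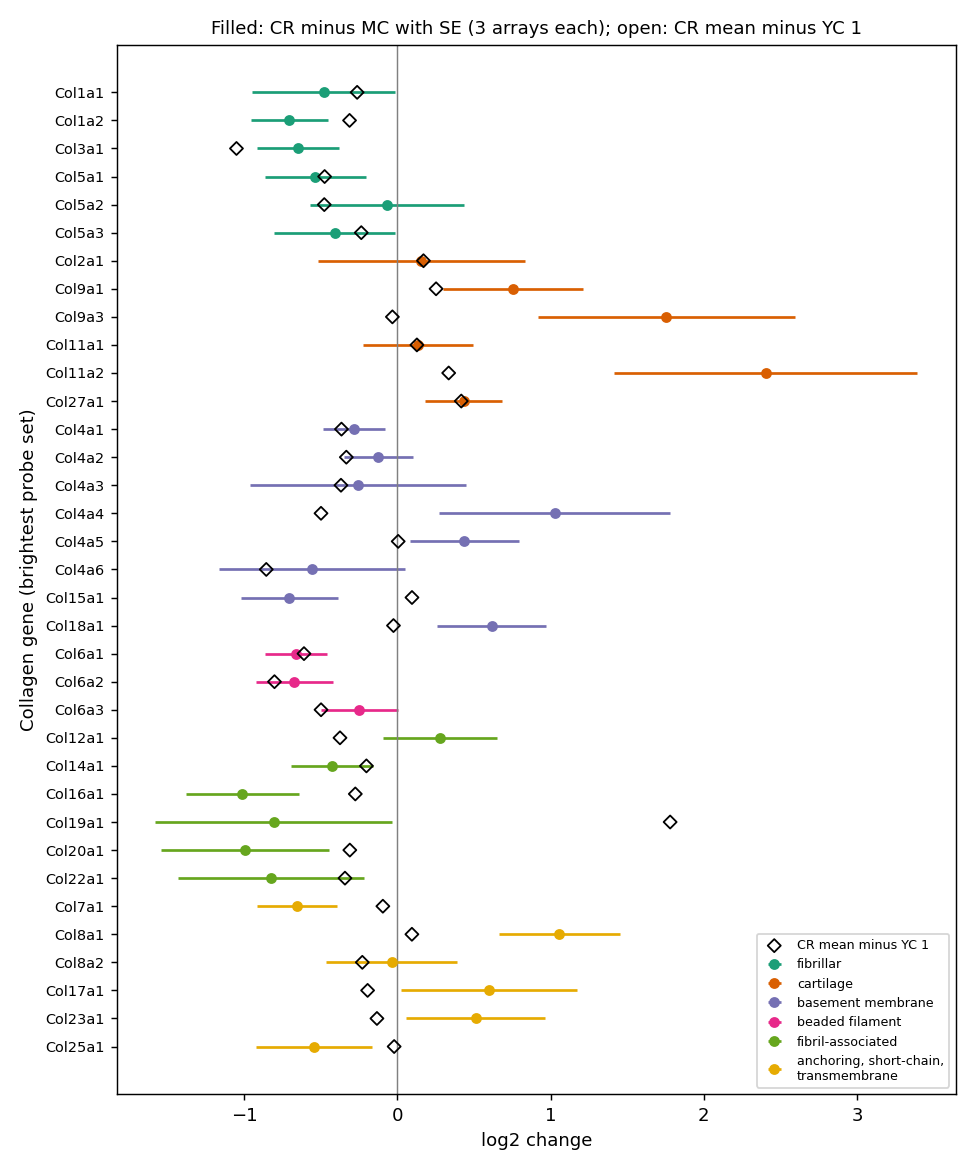
Filled points give the log2 difference CR minus MC with its SE (3 arrays per group) for the 35 tested genes, coloured by class; open diamonds give the CR mean minus YC replicate 1, the control array with a low median signal, with no error. Diamonds stay near the filled points for Col6a1, Col6a2 and Col5a1 and sit near 0 for Col9a3, Col15a1, Col7a1 and Col8a1; directions of the fibrillar and type VI classes turn with median centring.

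Basement membrane collagens showed no common direction: 5 of 8 were lower in CR than in MC with a median of -0.19, and 3 of 8 were lower both with median centring and in the table without quantile normalization. Col4a1, with Col4a2 the ubiquitous pair of basement membranes, read 13.45, 13.33 and 13.71 in YC, 13.60, 13.19 and 13.32 in MC and 12.99, 13.36 and 12.91 in CR, and CR minus MC was -0.28 ± 0.20 (SE, adjusted p = 0.457). A second probe set of Col4a1 read 12.01, 12.12 and 12.50 in YC, 12.58, 12.69 and 12.10 in MC and 11.76, 11.41 and 11.62 in CR, with CR below all 6 other arrays and a difference of -0.86 ± 0.24 (SE, adjusted p = 0.171). Col4a2 read 12.17, 12.08 and 11.86 in YC, 12.24, 11.67 and 11.98 in MC and 11.72, 11.95 and 11.84 in CR, and at -0.12 ± 0.23 CR and MC overlapped. For Col4a1 and Col4a2 YC replicate 1 lay above every CR array. The brighter Col4a1 probe set turned upwards to 0.08 without quantile normalization and to 0.70 with median centring.

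Col4a3, Col4a4 and Col4a5 encode the chains of the Alport network, found in cochlear basement membranes of the spiral limbus, basilar membrane and stria. These genes and Col4a6, the remaining type IV gene, varied widely between arrays. Col4a3 read 10.004, 9.78 and 7.74 in YC, 11.05, 9.31 and 9.31 in MC and 8.93, 9.75 and 10.23 in CR, with a single high MC array and a single low YC array, and CR minus MC was -0.25 ± 0.71. Col4a4 read 10.34, 9.68 and 7.56 in YC, 9.95, 8.78 and 7.73 in MC and 9.88, 9.93 and 9.72 in CR. It gave 1.03 ± 0.75 against MC, while against YC replicate 1 the CR mean was -0.50. Col4a5 read 10.73, 9.72 and 10.26 in YC, 10.33, 9.89 and 10.66 in MC and 10.81, 10.77 and 10.61 in CR, at 0.44 ± 0.36, and its other probe set gave -0.56 ± 0.45. Col4a6 read 10.17, 11.21 and 10.62 in YC, 10.68, 10.36 and 8.58 in MC and 10.14, 8.59 and 9.21 in CR. CR lay below all YC arrays, at -1.35 ± 0.61 (SE, adjusted p = 0.462), but overlapped MC replicate 3, at -0.56 ± 0.61. The second tested probe set of Col4a6 gave -0.22 ± 0.51 against YC, with overlapping groups, -0.13 ± 0.51 against MC and -0.09 ± 0.51 with age. These 4 genes thus gave no shared difference with diet, and with age they gave 0.72 ± 0.71, -0.37 ± 0.75, 0.06 ± 0.36 and -0.80 ± 0.61 in that order, none of them called. Without YC replicate 3 the age value of Col4a3 was -0.00158.

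Col15a1 and Col18a1 encode collagens that carry glycosaminoglycan chains and release the fragments restin and endostatin. Col15a1 read 10.61, 11.60 and 11.54 in YC, 11.33, 11.62 and 11.27 in MC and 10.49, 10.75 and 10.87 in CR, so that CR lay below MC, at -0.71 ± 0.32 (SE, adjusted p = 0.266), with YC replicate 1 among the CR arrays and a difference of only 0.10 from it. Col18a1 read 11.02, 10.998 and 10.76 in YC, 10.41, 11.06 and 9.67 in MC and 11.08, 10.84 and 11.08 in CR, at 0.62 ± 0.36 (SE, adjusted p = 0.363) against MC; its second probe set, which by its name is shared by several transcripts, gave -0.37 ± 0.36.

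Fibril-associated collagens, which bind to the surface of fibrils with interrupted helices, were lower in CR than in MC for 5 of 6 tested genes, with a median of -0.81; 4 of 6 were lower with median centring and 6 of 6 without quantile normalization. The median was -0.498 without MC replicate 3, -0.16 with the array median as a covariate and -0.13 with the array class as a term, where that of all genes was -0.09. Col16a1, a minor collagen of fibril surfaces, read 11.15, 12.60 and 11.67 in YC, 11.90, 11.52 and 12.26 in MC and 10.60, 11.16 and 10.87 in CR. CR lay below MC, at -1.01 ± 0.37 (SE, adjusted p = 0.212), with YC replicate 1 within the CR range. Col14a1 read 10.90, 11.17 and 11.04 in YC, 11.21, 11.39 and 10.79 in MC and 10.62, 10.78 and 10.70 in CR, with CR below the rest by a narrow margin at -0.43 ± 0.27 (SE, adjusted p = 0.396), and its second probe set gave 0.05 ± 0.39. Col20a1 read 9.43, 11.31 and 10.20 in YC, 10.55, 9.25 and 10.52 in MC and 8.78, 9.10 and 9.46 in CR, at -0.99 ± 0.55, and its other 2 tested probe sets were lower too, at -0.54 and -0.27. Col19a1 read 7.87, 11.39 and 10.47 in YC, 9.82, 10.28 and 11.28 in MC and 9.25, 10.11 and 9.59 in CR, with YC replicate 1 far below all others, so that CR minus MC was -0.81 ± 0.77 but CR minus that array was 1.78. Col12a1, a collagen of tendon and ligament, read 10.58, 9.67 and 10.07 in YC, 10.10, 9.60 and 10.07 in MC and 10.35, 10.39 and 9.86 in CR, at 0.28 ± 0.37, against -1.44 ± 0.70 by its second probe set. Col22a1, found at muscle and tendon junctions, gave -0.82 ± 0.60 and -1.09 ± 0.56 by its 2 tested probe sets, neither past the threshold.

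The remaining collagens anchor epithelia, form short-chain networks or span membranes, and 3 of 6 were lower in CR than in MC. Col8a1, a short-chain collagen of vessel walls and the cornea, read 11.64, 10.24 and 10.98 in YC, 10.38, 10.51 and 11.13 in MC and 11.23, 11.95 and 12.02 in CR. Its CR arrays lay above all MC arrays, at 1.06 ± 0.40 (SE, adjusted p = 0.215), YC replicate 1 lay among them, and a second probe set gave -0.22 ± 0.35. Col7a1, the anchoring fibril collagen, read 10.91, 11.46 and 11.21 in YC, 11.61, 11.36 and 11.44 in MC and 10.63, 10.77 and 11.04 in CR, with CR below MC at -0.65 ± 0.26 (SE, adjusted p = 0.233) and -0.09 from YC replicate 1. Col23a1, a membrane-spanning collagen, read 10.02, 9.56 and 9.85 in YC, 9.92, 9.73 and 8.47 in MC and 10.05, 9.95 and 9.65 in CR, at 0.51 ± 0.46, and its second probe set agreed in sign at 0.66 ± 0.46. Col25a1, the membrane collagen of neurons, read 9.99, 10.996 and 9.87 in YC, 10.24, 10.70 and 10.61 in MC and 9.80, 9.88 and 10.23 in CR, with CR below MC at -0.54 ± 0.38 (SE, adjusted p = 0.442). The dimmer probe set of Col25a1 read 8.61, 11.33 and 10.47 in YC, 10.45, 10.58 and 10.40 in MC and 9.12, 8.99 and 7.40 in CR, at -1.97 ± 0.69 (SE, adjusted p = 0.200), with YC replicate 1 beside CR. Col17a1, the hemidesmosome collagen, gave 0.60 ± 0.57 and Col8a2, the partner of Col8a1, -0.04 ± 0.43, both with overlapping groups.

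Probe sets of a gene often did not point the same way. Of 42 collagen genes, 27 have several probe sets, and of 20 with several tested ones the signs within the gene differed for 7 in CR minus MC, 8 in MC minus YC and 8 in CR minus YC. In CR minus MC all tested values were below 0 for Col1a1, Col1a2, Col3a1, Col5a1, Col4a1, Col4a6, Col6a2, Col20a1, Col22a1 and Col25a1 and above 0 for Col11a1, Col27a1 and Col23a1, and the signs were split for Col5a2, Col9a1, Col4a5, Col18a1, Col12a1, Col14a1 and Col8a1. Over all 56 tested collagen probe sets 38 were lower (67.9%), against 45.3% of all probe sets, and the smallest adjusted p was 0.130, for the second probe set of Col6a2.

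**Figure D5:**
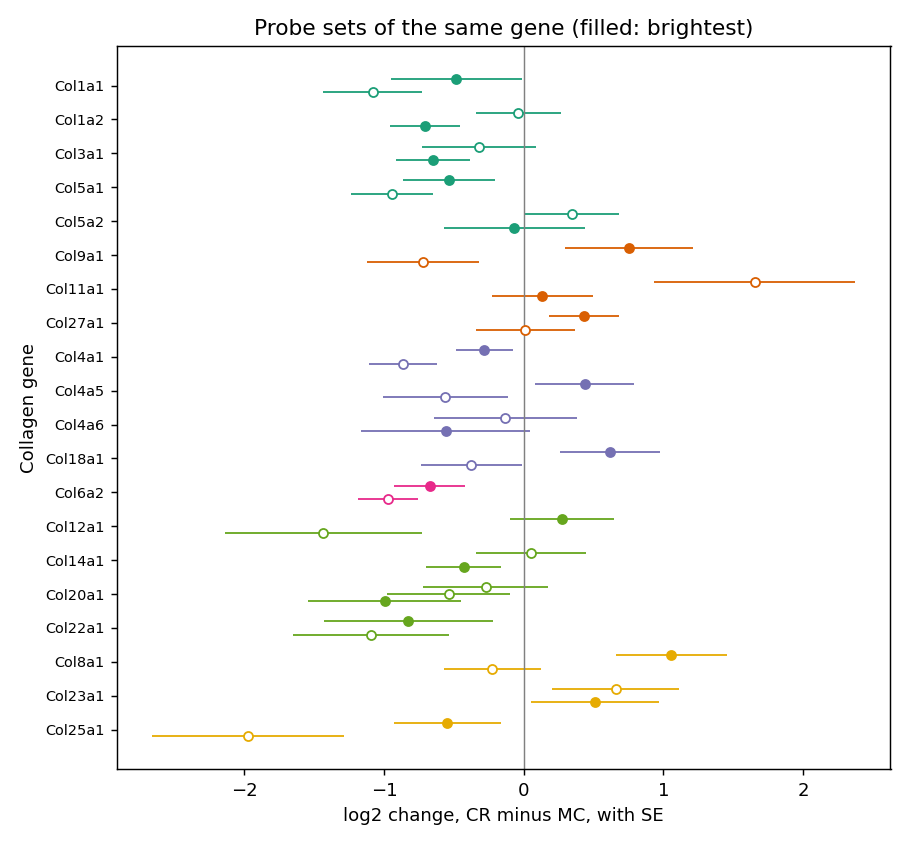
Log2 difference CR minus MC with its SE for each tested probe set of the 20 collagen genes that have several; filled points are the brightest probe set of a gene and colours give the class. Col6a2, Col5a1 and Col1a1 lie below 0 with both tested probe sets, whereas Col9a1 (0.75 and -0.72) and Col8a1 (1.06 and -0.22) lie on both sides. A probe set of Col5a1 below the signal limit, not drawn, read higher in CR than in MC. With median centring the brightest probe sets of Col1a1, Col5a1 and Col6a2 lie above 0.

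YC replicate 1 is a single pool of 4-month mice. Over the 35 genes, it lay above all 3 CR arrays for 15, below all for 4 and within their range for 16. Of the 22 genes lower in CR than in MC, it lay above all CR arrays for 13, within for 8 and below for 1. Of the 13 higher in CR, it lay below all CR arrays for 3, within for 8 and above for 2. With the array class as a term in the model, 0 collagen genes were called and the median difference CR minus MC was -0.22, against -0.09 for all genes.

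With age, 21 of 35 collagen genes were lower in MC than in YC and 14 were higher, with a median of -0.13, where 46.6% of all genes were lower with a median of 0.03. The mean over all tested probe sets of a gene gave a median of 0.04, so no direction with age can be read. The 2 groups overlapped for every one of the 35 genes by its brightest probe set. Among brightest probe sets the difference of smallest unadjusted p was that of Col18a1, at -0.55 ± 0.36 (SE, adjusted p = 1), and its second probe set gave 0.03. Over all 56 tested probe sets MC and YC did not overlap for 3, where 5.57% of all genes did not by their brightest. These were dimmer ones of Col22a1 (1.43 ± 0.56), Col12a1 (0.99 ± 0.70) and Col5a2 (-0.70 ± 0.34), none of them called. That of Col22a1 had the smallest unadjusted limma p of the 56. For Col11a2 the age value was -0.67 ± 0.99 and for Col9a3 0.29 ± 0.84. Against YC, the CR differences of Col1a2 and Col16a1 were -0.79 ± 0.25 (SE, adjusted p = 0.457) and -0.93 ± 0.37 (SE, adjusted p = 0.457), and that of Col9a3 was 2.04 ± 0.84 (SE, adjusted p = 0.459). CR minus YC and CR minus MC use the same CR arrays, so one is no independent repeat of the other.

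Genes that fold, process and break down collagen were not called in any comparison. Directions of all pathway and cell marker lists were taken on the quantile normalized scale, where 45.4% of all genes were lower in CR than in MC. They were not checked with median centring, which turned some collagen classes. Of 18 tested genes of folding, hydroxylation and secretion 9 were higher in CR than in MC and 9 lower. Serpinh1, the chaperone of procollagen, gave -1.09, with an adjusted p of 0.129. Colgalt2, which adds sugar to hydroxylysine, gave 1.90, the channel gene Tmem38b -0.89, and Mia3, which loads procollagen for export, -0.20. Among 7 genes of processing and crosslinking 6 were higher, of which Pcolce2 and Pcolce, enhancers of the C-propeptide proteinase, gave 1.03 and 0.09, and the lysyl oxidases Loxl4 and Loxl3 0.36 and 0.21. Of 13 degradation genes 10 were higher. The gelatinase Mmp2 was lower, at -1.11, and the membrane collagenase Mmp14, the inhibitor Timp3 and the stromelysin Mmp3 gave 0.74, 0.77 and 0.12. Among the genes named here the CR arrays overlapped neither MC nor YC for Serpinh1, Tmem38b and Mmp2, which were lower in CR, and for Colgalt2 and Pcolce2, which were higher. The named genes were picked by small p, and over all genes 36.6% did not overlap in CR minus MC and 21.2% in CR minus YC.

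Collagen receptors were lower in CR than in MC for 5 of 8 tested genes. The integrin chains Itga2, Itga10 and Itga1 gave -1.40, -0.92 and 0.59, and the discoidin receptors Ddr1 and Ddr2 0.93 and 0.21. Proteoglycans and glycoproteins of fibrils were 10 higher and 8 lower: epiphycan (Epyc) gave 0.99, asporin (Aspn) 1.16, fibulin 1 (Fbln1) -1.69 and biglycan (Bgn) -0.28. Basement membrane partners were lower for 10 of 15, with the perlecan gene Hspg2 at -1.79 and the laminin chains Lamb2 and Lama4 at -0.90 and 1.45. TGF-beta signalling genes, which control collagen transcription, were higher for 10 of 14, with Smad2, Smad3, Ltbp3 and Tgfbr1 at 1.27, -0.50, -0.40 and 0.25. With age, none of these lists had a called gene either; the clearest values were Lama4 at -1.41 and Mmp14 at -0.70.

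Markers of other cochlear cell types gave values in both directions without a call. Cochlear fibrocyte markers, from cells that lie in the collagen-rich spiral ligament, were higher in CR for 5 of 5, with a median of 0.98, and stria vascularis markers for 6 of 6, with a median of 1.16. Supporting cell and tectorial membrane markers were higher for 4 of 6, hair cell markers for 1 of 4, endothelial markers for 2 of 6, and markers of neutrophils and marrow, which bone of the inner ear can hold, for 1 of 7. The part of any of these in the collagen values was not tested.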

How the data were processed

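Per the labels' protocols, total RNA was labelled with biotin for Affymetrix arrays, and the submitters' processing notes name GCOS 1.3. The authors' deposited table holds linear intensity values for 45037 probe sets, all scaled per array; the sources used here do not give the signal algorithm or detection calls. Each array's mean without the outer 2% was near 1495, but medians differed 2.10-fold. The 9 arrays were therefore transformed to log2(signal + 16) and quantile normalized, a scale that makes differences of dim transcripts look smaller. The 27022 probe sets whose mean log2 signal reached the 40th percentile were fitted as 3 group means in limma 3.58.1 (R 4.3.3, eBayes with a trend) with Benjamini-Hochberg adjustment at 0.05. The fit was tried on simulated data that held no array classes, so that trial does not cover the low and high median classes of these arrays. With so few arrays precision is limited, and the SE of CR minus MC had a median of 0.43.

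The platform annotation gave 1 symbol to 34945 probe sets, several to 932 and none to 9160; symbols were updated through RefSeq of GRCm38.p6 for 34741. Those with several symbols stayed in the test unnamed. The collagen genes and the gene lists were chosen with earlier results of these data known, and the array classes are split at the largest gap between median signals. Sample values were given for a fixed set of collagens and for the 3 genes of each class with the smallest p in each of MC minus YC and CR minus MC; of each pathway list the 3 genes with the smallest p in CR minus MC and the 2 in MC minus YC were named. Alternatives covered pseudocount, filter, scaling, variance model, array weights, the groups fitted, replicate number, array class and median, and leaving out each array.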

Additional observations from a re-analysis of the deposited data

How the results depend on the processing

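Each of 24 alternative settings kept the number of called collagen probe sets in MC minus YC and CR minus YC at 0. In CR minus MC the number was 13 (12 genes, of 3397 called in all) with array weights, whose estimation stopped before convergence, 4 (of 1846) with only the compared groups in the fit, and 0 to 2 when single arrays were left out, the 2 (of 987) being both probe sets of Col6a2 without YC replicate 2. The 4 were Col4a1 (second probe set), Col1a2 and both of Col6a2. With arrays centred on their median, the median over collagen genes was -0.32 in MC minus YC, 0.40 in CR minus MC and 0.065 in CR minus YC, against -0.18, 0.65 and 0.44 for all genes. Averaging each gene's tested probe sets gave 0.040 in MC minus YC.

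Among the genes given by array whose difference exceeded 1 SE, median centring turned CR minus MC for Col1a1 (0.50), Col1a2 (0.22), Col3a1 (0.32), Col5a1 (0.12), Col4a1 (0.70), Col6a1 (0.28), Col6a2 (0.27) and Col14a1 (0.064), and CR minus YC for Col4a1 (0.29) and Col6a2 (0.065). Without quantile normalization CR minus MC turned for Col4a1 (0.083) and Col23a1 (-0.027). The smaller differences of Col5a2 and Col6a3 turned with centring too, to 0.66 and 0.50. With the array class as a term CR minus MC turned for Col1a1 (0.083), Col1a2 (0.014), Col9a3 (-1.36), Col4a4 (-0.70), Col4a5 (-0.30), Col15a1 (0.26), Col19a1 (2.25) and Col20a1 (0.34), and CR minus YC turned for Col9a3 (-0.032) and Col15a1 (0.096), which are also the values against YC replicate 1 alone. With the array median as a covariate CR minus MC turned for Col4a5 (-0.025), Col19a1 (1.299) and Col20a1 (0.22). Leaving out single arrays gave -0.17 to 1.32 for Col2a1 and -0.00158 to 1.13 for Col4a3 in MC minus YC, and -0.017 to 1.48 for Col2a1 in CR minus YC, the lowest without YC replicate 2 for Col2a1 and without YC replicate 3 for Col4a3. Median centring shifts whole arrays by construction; for the other settings the cause was not tested. Of 1997 values of single genes under the alternatives, 1956 kept their side of the threshold and, where beyond 1 SE, their direction. Many of these settings cannot move a gene's difference. Among them are the filter, the variance trend, the groups fitted, the replicate block and leaving out an array of a group not compared. The count is therefore no measure of how stable the differences are. With the replicate number as a block 0 collagen probe sets were called. Every group holds the same replicate numbers, so the block cannot move a group difference, and the median in CR minus MC stayed at -0.25 by construction. Same-numbered arrays deviated from their group means with correlations of -0.29 to 0.27. These values show no pairing by number, but with so few arrays they cannot exclude it.

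With 3 pools per group, differences near the array's median SE of 0.43 could not be resolved, and larger ones went uncalled too. Examples in CR minus MC are Col11a2 at 2.40 and the second probe set of Col1a1, a bright gene, at -1.08. The absence of a call therefore does not show that a gene was unchanged. A further 7 collagen genes lay below the signal limit. No detection calls were used.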
